A study of Mus musculus with 5 samples.

Results

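The genes described here are 40 genes of mitochondrial fuel use: the enzymes that burn fatty acids, the enzymes of the tricarboxylic acid (TCA) cycle, the nuclear receptors that regulate them, and Acod1, which makes itaconate. They were taken by symbol from a deposited table of 21289 genes, and all 40 symbols were found. The table holds RNA sequencing counts of CD45+CD64+ cells sorted from hearts of wild-type male C57BL/6JGpt mice, taken on day 7 of a myocardial infarction (MI). CD45 is carried by leukocytes, and CD64, the product of Fcgr1, binds immunoglobulin on monocytes and macrophages. In 2 libraries the mice had an infarct and no curcumol (untreated, MI), and in 3 they had an infarct and curcumol, a plant sesquiterpene, at 30 mg/kg by daily gavage for 7 days (curcumol, MI+Cur). Hearts without infarction were not analysed here. The sources used here do not give the age of the mice, or whether a library stands for 1 mouse or a pool, so the spread behind each p-value is that of these libraries and may be technical. By its title, the study asked about STING and type I interferon.

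Fatty acids enter oxidation as acyl-CoA, which long-chain acyl-CoA synthetases make. The carnitine shuttle carries the acyl group into the mitochondrion, and beta-oxidation shortens it in repeated rounds of dehydrogenation, hydration, a further dehydrogenation and thiolysis. The acetyl-CoA formed enters the TCA cycle. Macrophages given inflammatory signals divert the cycle's intermediate cis-aconitate to itaconate through ACOD1, while fatty acid oxidation and the receptor PPAR gamma are textbook features of alternatively activated macrophages.

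Library totals ranged from 39768705 to 43315822 counts. The untreated libraries held a count for 12243 and 12915 genes and the curcumol libraries for 17078 to 18501. The 11 macrophage markers examined had counts in every library and summed to 44870 and 44933 CPM without curcumol and to between 37567 and 43212 CPM with it. Summed markers of several other cell types were higher in every curcumol library. Summed neutrophil markers stood at 394 and 423 CPM against 1575 to 3539 CPM, with 10 of 12 markers higher in all curcumol libraries. Fibroblast markers stood at 29.0 and 36.8 against 131 to 329 CPM (5 of 7), endothelial markers at 1.37 and 5.09 against 23.2 to 35.4 CPM (6 of 6), and cardiomyocyte markers at 34.4 and 83.9 against 115 to 131 CPM (8 of 13). T and NK cell markers stood at 36.3 and 39.9 against 44.1 to 88.3 CPM, but only 1 of 7 was higher in all curcumol libraries. B cell markers stood at 54.7 and 36.5 against 67.0 to 98.9 CPM (4 of 5). Of all tested genes, 29.5% were higher in all curcumol libraries. The defining markers Camp, Ly6g, Lum, Pdgfra, Cdh5, Tek, Egfl7, Myh7 and Ryr2 were at 0 in both untreated libraries. The part of these cells in the values below was not tested. In bulk RNA, fewer cells of a type and less RNA per cell cannot be told apart.

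No member passed the test, in either direction. CPM below are counts scaled by each library's total after TMM scaling (a correction for composition), given in the order of the replicate numbers. A log2 fold change, given with its SE, is above 0 where curcumol was higher. Of the 40 members, 38 had enough counts to be tested, and the smallest adjusted p among them was 0.0651 in edgeR's quasi-likelihood test with Benjamini-Hochberg adjustment. Over all 14508 genes tested, 0.207% passed an adjusted p of 0.05 (0.0689% higher, 0.138% lower). Of genes with an average log2 CPM of at least 5, 0.477% passed (0.0682% higher, 0.409% lower). DESeq2 called 8 of the 38 members where it called 16.5% of all genes: Cpt1a and Acox3 higher, and Acod1, Pparg, Etfa, Acadm, Acaa2 and Mdh2 lower. The limma-voom fit called 3, Acod1, Pparg and Etfa, where it called 11.4%.

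Unadjusted p-values under 0.05 came from 9 members, 23.7% of the 38, where all genes gave 24.6%. They were 2 higher (5.26%, all genes 18.1%) and 7 lower (18.4%, all genes 6.51%) with curcumol. The split between directions moved with the level of the genes compared. Among genes of an average log2 CPM of at least 5, where 28 members lie, 24% of all genes had such a p, 9.19% higher and 14.8% lower, beside 7.14% and 21.4% of those members. For 19 members every curcumol library lay outside the untreated range on the same side, 8 higher and 11 lower (50.0%, all genes 44.4%, with 29.5% higher and 14.9% lower). At an average log2 CPM of at least 5 it was 14 of 28, 4 higher and 10 lower (all genes 42.8%, with 15.5% higher and 27.3% lower). The median log2 fold change was -0.09 over the members, 0.15 over all tested genes and -0.10 over genes of an average log2 CPM of at least 5. Of the 38 members 17 had a positive log2 fold change (44.7%, all genes 57.1%), and of the 28 more abundant members 12 (42.9%, all genes 40.6%). Scaled by total counts, 24 of the 38 were positive, and the median of all genes then lay at 0.34.

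**Figure D1:**
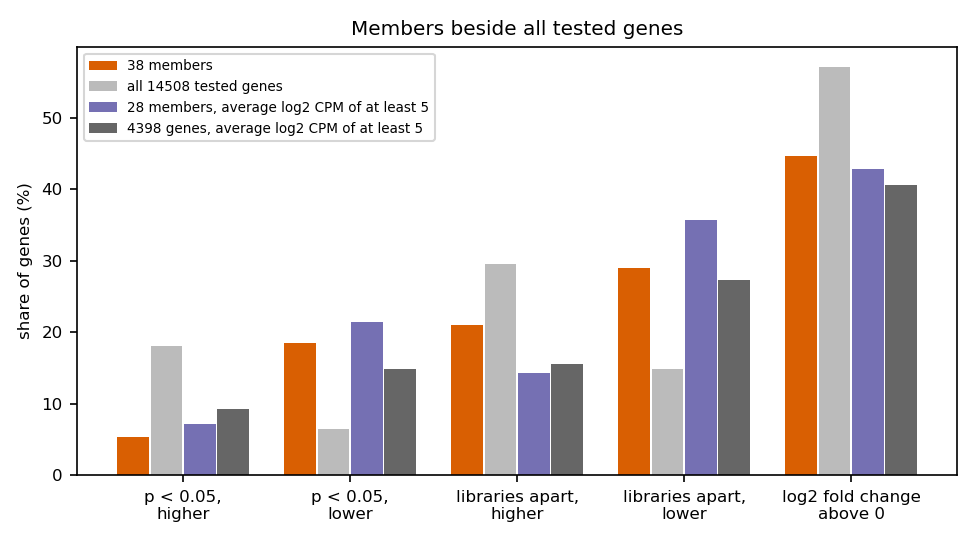
Share of genes, in percent, that met each description, for the 38 tested members, all tested genes, and both restricted to an average log2 CPM of at least 5. The 5.26% of members higher and 18.4% lower at an unadjusted p under 0.05 stand beside 18.1% and 6.51% of all genes, and beside 9.19% and 14.8% of the more abundant genes.

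Acod1 had the most negative log2 fold change among the members that every library expressed. ACOD1, cis-aconitate decarboxylase (NCBI gene 16365), converts a TCA cycle intermediate into itaconate. Its transcript stood at 38.3 and 55.9 CPM without and at 22.3, 16.6 and 10.1 CPM with curcumol. All 3 curcumol libraries lay below both untreated ones, and they differed 2.19-fold among themselves. The log2 fold change was -1.53 ± 0.38 (95% interval -2.43 to -0.62, adjusted p = 0.0752). Leaving out single libraries gave values from -1.82 to -1.21. Acod1 is known from neutrophils as well as macrophages, and the summed neutrophil markers were higher in all curcumol libraries, with values as above. Their part in the value of Acod1 was not tested. Among 12 other genes of itaconate transport, target or turnover, 11 were tested and none passed. Nfkbiz, an inducible NF-kB cofactor whose induction itaconate derivatives are known to restrain, stood at 608 ± 13.1 and 178 ± 46.6 CPM (adjusted p = 0.0523). Atf3, which encodes a transcription factor of the stress response, was at 1652 ± 165 and 206 ± 104 CPM (adjusted p = 0.0523). Keap1, the NRF2 inhibitor that itaconate alkylates, stood at 49.6 ± 4.33 and 70.3 ± 7.54 CPM (adjusted p = 0.156). The median of these 11 genes was -0.65 (all genes 0.15, genes of an average log2 CPM of at least 5 -0.10). Of the 11, 7 were negative and 4 positive (36.4%, all genes 57.1%, the more abundant genes 40.6%). At an unadjusted p under 0.05, 4 were lower (36.4%, all genes 6.51%, the more abundant genes 14.8%). On the same measure 1 was higher (9.09%, all genes 18.1%, the more abundant genes 9.19%). This list was chosen with earlier results of these data known, so its shares are descriptions and not a test.

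**Figure D2:**
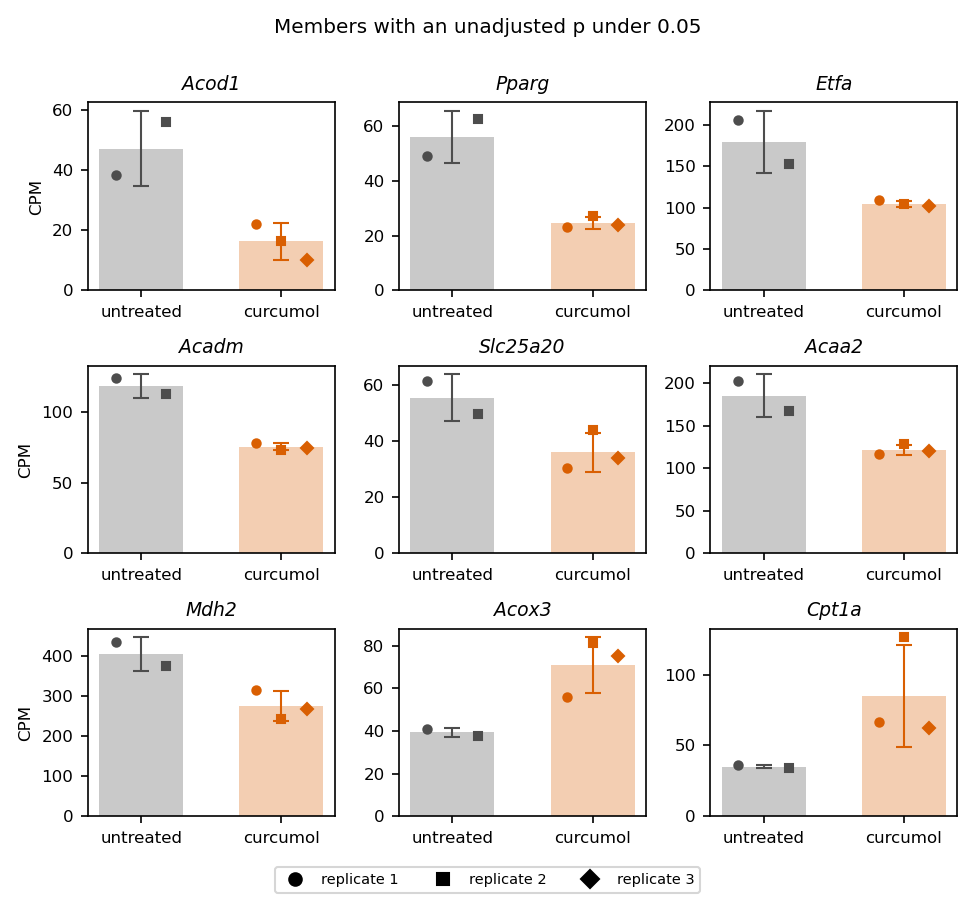
CPM of the 9 members with an unadjusted p under 0.05, by group. Points are single libraries, bars are means and whiskers are SD (n = 2 untreated, n = 3 curcumol); every panel starts at 0. In each panel all curcumol points lie on 1 side of both untreated points, which the choice of panels by p favours. Without that choice this held for 50.0% of the 38 tested members and 44.4% of all tested genes.

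The promoter stretches of 3 members with differing values, and the stretch between a head-to-head pair, show the sequence from which these genes are read. They are the 250 bases before the RefSeq start (GRCm38.p6), on the gene's strand, at chr14:103046762-103047011 (+) for Acod1, chr3:153944644-153944893 (-) for Acadm and chr19:3323051-3323300 (+) for Cpt1a. The stretch of 272 bases between the divergent starts of Hadha and Hadhb is at chr5:30154981-30155252, written on the plus strand. Capitals mark AGGTCA, the half-site of PPARs and related receptors, and CCAAT, on either strand.
Acod1: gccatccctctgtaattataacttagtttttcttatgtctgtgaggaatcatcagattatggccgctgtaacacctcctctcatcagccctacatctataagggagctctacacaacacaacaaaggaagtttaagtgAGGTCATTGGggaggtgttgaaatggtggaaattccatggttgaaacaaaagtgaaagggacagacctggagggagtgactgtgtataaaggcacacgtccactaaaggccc
Acadm: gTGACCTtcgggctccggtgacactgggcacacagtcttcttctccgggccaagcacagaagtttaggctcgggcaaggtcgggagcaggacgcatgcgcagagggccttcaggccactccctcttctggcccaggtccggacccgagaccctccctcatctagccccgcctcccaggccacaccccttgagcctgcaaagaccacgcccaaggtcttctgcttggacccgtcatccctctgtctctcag
Cpt1a: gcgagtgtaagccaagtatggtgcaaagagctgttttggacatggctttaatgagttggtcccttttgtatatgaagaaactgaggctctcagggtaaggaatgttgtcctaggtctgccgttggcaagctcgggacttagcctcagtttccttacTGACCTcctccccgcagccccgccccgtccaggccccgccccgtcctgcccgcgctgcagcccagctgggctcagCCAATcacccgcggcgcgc
Hadha and Hadhb: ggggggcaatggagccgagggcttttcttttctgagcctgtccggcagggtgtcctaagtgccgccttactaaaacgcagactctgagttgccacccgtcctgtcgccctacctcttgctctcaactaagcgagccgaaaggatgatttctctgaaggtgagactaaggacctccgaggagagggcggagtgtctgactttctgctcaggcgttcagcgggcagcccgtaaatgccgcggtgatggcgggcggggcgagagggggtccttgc

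In Acod1 the half-site and a CCAAT box on the other strand overlap by 1 base, 112 bases before the start. Promoter windows were found for 36 members. On both strands, AGGTCA occurred in 8 of these (22.2%, against 15.8% of 27025 genes with a window) and CCAAT in 17 (47.2% against 37.5%). The NRF1 element of many mitochondrial genes occurred in 2 (5.56% against 0.877%), Etfdh and Ppara, and the cyclic AMP element TGACGTCA in 2 (5.56% against 1.77%), Mdh2 and Ogdh. None of the 36 windows held a direct repeat of the half-site with 1 base between (0.0407% of all genes). They also lacked the ERR element TCAAGGTCA, which contains the half-site (0.422%), and the AP-1 element TGANTCA (7.82%). The patterns searched for the NF-kB site (1.65%) and the interferon-stimulated response element (3.46%) were absent too. For both, a single spelling was searched, so variant sites, in the Acod1 window or elsewhere, were not tested. A match is a match of letters, not a measured binding site.

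Of the 5 regulators, Pparg was the most abundant per kilobase. It encodes PPAR gamma (NCBI gene 19016), the lipid-activated receptor that drives fatty acid uptake and storage genes in macrophages. Pparg stood at 49.2 and 62.7 CPM without and at 23.1, 27.1 and 23.9 CPM with curcumol. The curcumol values lay close together, and all were below both untreated values. The log2 fold change was -1.18 ± 0.21 (95% interval -1.69 to -0.67, adjusted p = 0.0651, the smallest of the members). Single libraries left out gave -1.34 to -0.97. Pparg is also the master regulator of fat cells. Of 7 adipocyte markers, 4 were in the table and 1 had enough counts to be tested. These 4 summed to 1.75 and 4.32 CPM without and to between 0.114 and 0.430 CPM with curcumol. Only 1 of the 4 was lower in all curcumol libraries, and Adipoq and Cidea were at 0 in both untreated libraries. The part of fat cells in the value of Pparg was not tested. Ppard, the more widely expressed receptor PPAR delta, stood at 1.52 and 3.86 CPM without and at 3.20, 1.77 and 4.23 CPM with curcumol, and these ranges overlap. Ppara, the receptor that dominates in liver and heart muscle, had 0 counts in 4 libraries and 4 counts in the fifth.

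The PGC1 coactivators, which raise mitochondrial gene expression, had at most 23 counts in an untreated library. Ppargc1a had 0 counts in both untreated libraries and 11, 1 and 0 counts with curcumol, so no fold is given. Ppargc1b stood at 0 and 0.588 CPM without (0 and 23 counts) and at 1.51, 3.29 and 3.45 CPM with curcumol (63, 145 and 147 counts). Its log2 fold change of 3.21 ± 1.74 (adjusted p = 0.319) was 2.22 without untreated replicate 1 and 9.86 without untreated replicate 2. Per kilobase of transcript, the order without curcumol was Pparg at 26.3 ± 4.47, Ppard at 0.821 ± 0.505 and Ppargc1b at 0.0805 ± 0.114 CPM per kb, with Ppara and Ppargc1a at 0. With curcumol it was Pparg at 11.6 ± 0.983, Ppard at 0.936 ± 0.377 and Ppargc1b at 0.752 ± 0.296 CPM per kb, and Ppard and Ppargc1b did not differ beyond their spread.

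Of 22 PPAR targets and partners of lipid storage and transport, 21 were tested and none passed. Of the 21, 12 were positive (57.1%, all genes 57.1%), with a median log2 fold change of 0.12 (all genes 0.15). At an unadjusted p under 0.05, 5 were higher (23.8%, all genes 18.1%, the more abundant genes 9.19%). On the same measure 3 were lower (14.3%, all genes 6.51%, the more abundant genes 14.8%). Lpl, the lipoprotein lipase, stood at 364 ± 57.0 and 205 ± 9.92 CPM (adjusted p = 0.0651). Hilpda, a lipid droplet protein that restrains lipolysis, stood at 287 ± 35.7 and 62.8 ± 38.2 CPM (adjusted p = 0.0659). Pdk4, a kinase that closes pyruvate entry when fat is burned, stood at 5.09 and 0 CPM without and at 0.215, 2.09 and 0.235 CPM with curcumol. One untreated library was above all others and the other was at 0, so the groups overlap. Ucp2, an uncoupling protein family member of the inner membrane, was the most abundant member per kilobase. It stood at 2388 and 1890 CPM without and at 1608, 2607 and 1551 CPM with curcumol, and these ranges overlap (log2 fold change -0.15 ± 0.27, 95% interval -0.81 to 0.50).

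**Figure D3:**
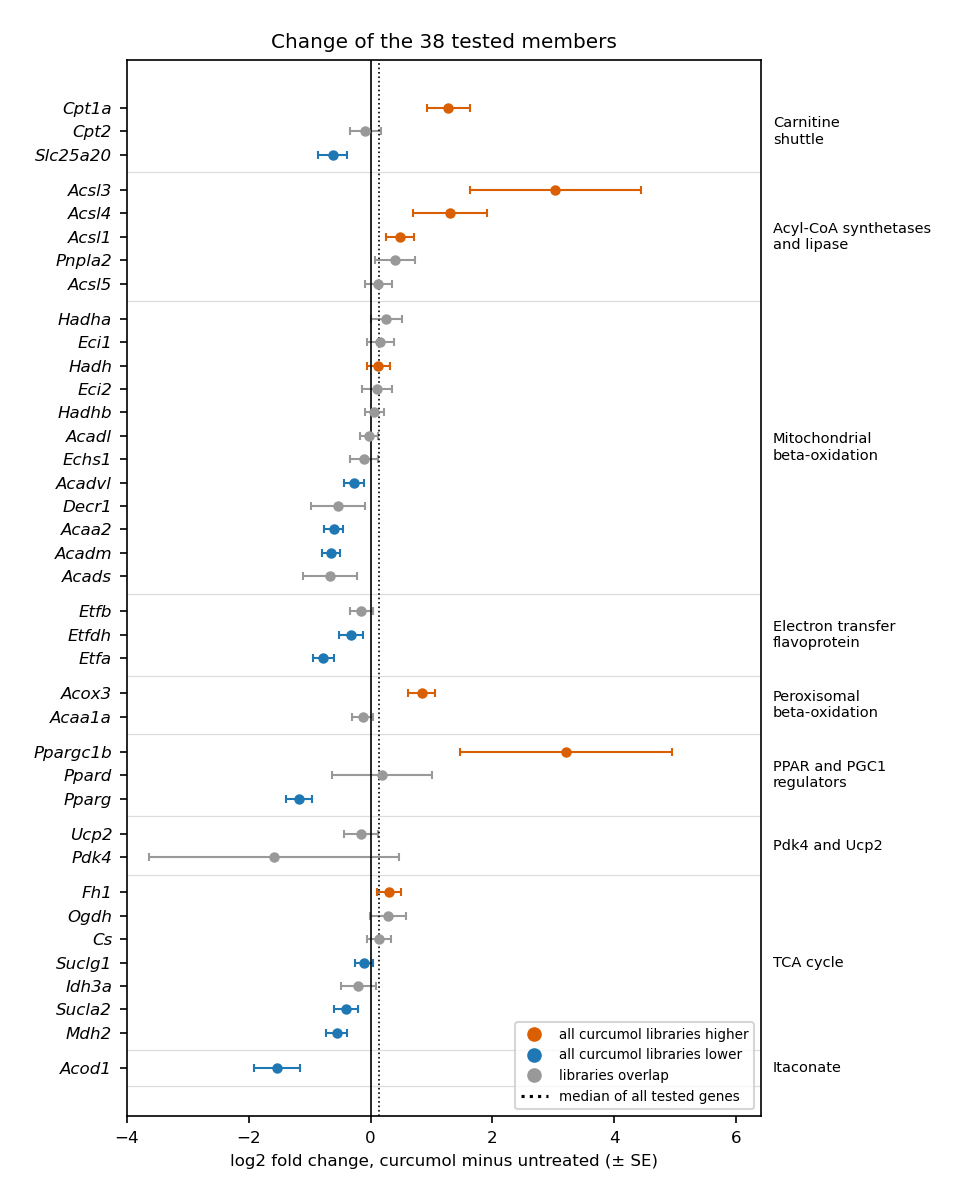
Log2 fold change of each tested member (point) with its SE (whisker), grouped by role; the solid line is 0 and the dotted line the median of all tested genes, 0.15. Acod1 and Pparg lie at -1.53 and -1.18, Cpt1a and Acox3 at 1.27 and 0.84, and Acsl3, Ppargc1b and Pdk4 have SEs of 1.40 to 2.05.

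The 3 parts of the carnitine shuttle differed in direction. Cpt1a encodes the outer membrane carnitine palmitoyltransferase (NCBI gene 12894), the regulated entry step of long-chain fatty acid oxidation. It stood at 36.0 and 34.2 CPM without and at 66.4, 126 and 62.3 CPM with curcumol. All curcumol libraries were above both untreated libraries, and the curcumol libraries differed 2.02-fold among themselves, with replicate 2 highest. The log2 fold change was 1.27 ± 0.35 (95% interval 0.43 to 2.12, adjusted p = 0.0828) and 0.88 to 1.45 with single libraries left out. Cpt1b, the muscle form, had no count in the untreated libraries and at most 0.0454 CPM with curcumol, while summed cardiomyocyte markers were higher with curcumol. Slc25a20, the carnitine-acylcarnitine carrier of the inner membrane, stood at 61.4 and 49.6 CPM without and at 30.4, 43.9 and 33.9 CPM with curcumol. These ranges are apart but near each other (-0.62 ± 0.24, adjusted p = 0.168). Cpt2, the inner membrane transferase, stood at 21.9 and 31.5 CPM without and at 25.9, 24.6 and 25.2 CPM with curcumol, inside the untreated range.

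All 5 genes that free and activate fatty acids had positive log2 fold changes, where 57.1% of all genes did. None of the 5 passed, and none had an unadjusted p under 0.05. Their median was 0.48 (all genes 0.15), and it was 0.67 with total counts as the scaling (all genes 0.34). Acsl1, the main synthetase of oxidative tissue and of inflammatory macrophages, stood at 21.5 and 28.8 CPM without and at 34.8, 36.1 and 34.6 CPM with curcumol (0.48 ± 0.23, adjusted p = 0.259). Acsl4, which prefers arachidonic acid, stood at 13.7 and 4.45 CPM without and at 15.9, 33.8 and 17.5 CPM with curcumol (1.30 ± 0.60, adjusted p = 0.243). The log2 fold change of Acsl4 was 2.34 without untreated replicate 1 and 0.73 without untreated replicate 2. Acsl3, the synthetase of lipid droplets and the endoplasmic reticulum, stood at 2.59 and 0.0512 CPM without and at 12.3, 13.9 and 6.23 CPM with curcumol. The untreated libraries thus differed 50.5-fold between themselves, by 102 against 2 counts. The log2 fold change of Acsl3, 3.03 ± 1.40 (adjusted p = 0.244), was 7.65 without untreated replicate 1 and 2.08 without untreated replicate 2. Acsl5, a mitochondrial and endoplasmic reticulum form, stood at 145 and 136 CPM without and at 186, 160 and 115 CPM with curcumol. Pnpla2, the triglyceride lipase ATGL, stood at 83.8 and 117 CPM without and at 100, 191 and 109 CPM with curcumol. For both of these the ranges overlap. Without curcumol replicate 1, 4 of the 5 genes had a positive value.

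Per kilobase, Acsl5 was the most abundant synthetase in both groups, at 33.1 ± 1.58 and 36.3 ± 8.46 CPM per kb. Acsl1 followed at 6.45 ± 1.31 and 9.03 ± 0.205, then Acsl4 at 1.72 ± 1.24 and 4.25 ± 1.87, and Acsl3 at 0.334 ± 0.454 and 2.74 ± 1.03 CPM per kb. With curcumol the levels of Acsl4 and Acsl3 overlap between libraries.

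**Figure D4:**
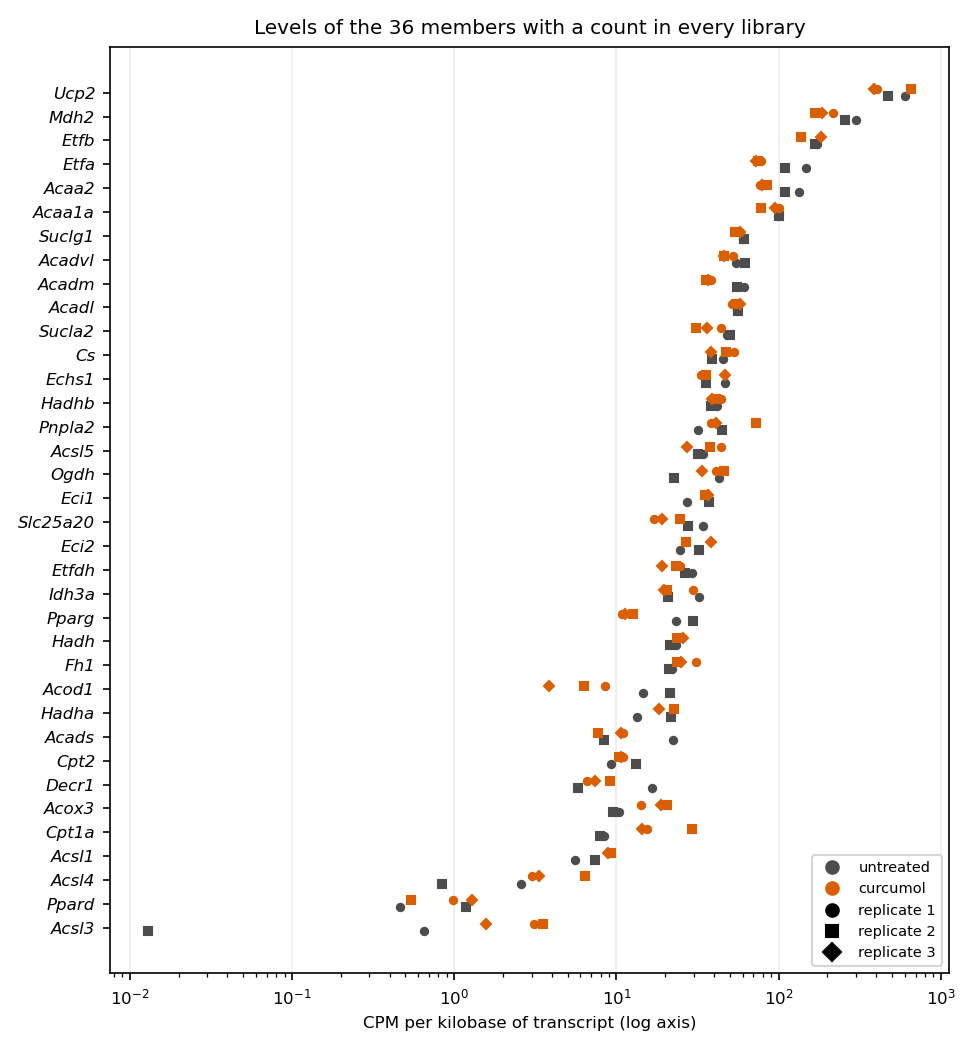
CPM per kilobase of transcript, on a log axis, for the 36 members with a count in every library, ordered by the untreated mean. Grey points are untreated and orange points curcumol libraries; Ucp2 and Mdh2 lead both groups, and the untreated points of Acsl3 lie 50.5-fold apart.

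The 12 enzymes of mitochondrial beta-oxidation had a median log2 fold change of -0.06 (all genes 0.15, the more abundant genes -0.10). Of the 12, 5 were positive and 7 negative (41.7% positive, all genes 57.1%, the more abundant genes 40.6%). With total counts as the scaling their median was 0.13 (all genes 0.34). Their means lay between 28.8 and 185 CPM without and between 18.2 and 122 CPM with curcumol. Acadm, the medium-chain acyl-CoA dehydrogenase (NCBI gene 11364), stood at 124 and 113 CPM without and at 78.5, 73.5 and 75.0 CPM with curcumol. Replicates lay close together in both groups and the groups were apart (-0.65 ± 0.15, 95% interval -1.01 to -0.28, adjusted p = 0.0708). Acaa2, the thiolase of the last step, stood at 203 and 167 CPM without and at 116, 128 and 120 CPM with curcumol, again apart (-0.61 ± 0.16, adjusted p = 0.0787). The dehydrogenases of long and very long chains stood nearer to 0. Acadl stood at 107 and 107 CPM without and at 99.5, 104 and 111 CPM with curcumol (-0.03 ± 0.15, 95% interval -0.39 to 0.33). Acadvl stood at 119 and 134 CPM without and at 114, 100 and 100 CPM with curcumol, apart by a narrow gap (-0.27 ± 0.16, adjusted p = 0.363).

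The trifunctional protein joins hydratase, dehydrogenase and thiolase activities for long chains, and its subunits are the head-to-head genes shown above. Hadha stood at 53.8 and 87.1 CPM without and at 89.6, 90.7 and 73.3 CPM with curcumol. Hadhb stood at 84.9 and 78.5 CPM without and at 91.0, 84.8 and 80.0 CPM with curcumol. The ranges of both subunits overlap between the groups, and the untreated libraries differed more for Hadha (1.62-fold) than for Hadhb (1.08-fold). Hadh, the dehydrogenase of shorter chains, stood at 41.7 and 38.2 CPM without and at 42.6, 42.0 and 46.2 CPM with curcumol (0.13 ± 0.19). The hydratase Echs1 and the isomerases Eci1 and Eci2, which prepare unsaturated chains, had log2 fold changes of -0.10, 0.16 and 0.10, with overlapping libraries. Acads, the short-chain dehydrogenase, and Decr1, a reductase of unsaturated chains, had wide untreated values. Acads stood at 42.0 and 15.7 CPM without and at 20.4, 14.4 and 19.9 CPM with curcumol, and Decr1 at 48.8 and 17.2 CPM against 19.6, 27.1 and 22.0 CPM. For both, untreated replicate 1 was high and untreated replicate 2 lay within or next to the curcumol range.

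Electrons from the acyl-CoA dehydrogenases pass through the electron transfer flavoprotein, a dimer of ETFA and ETFB, to its oxidoreductase ETFDH. Etfa (NCBI gene 110842) stood at 205 and 153 CPM without and at 109, 104 and 101 CPM with curcumol, with the groups apart (-0.77 ± 0.18, 95% interval -1.20 to -0.34, adjusted p = 0.0702). Etfb stood at 154 and 149 CPM without and at 123, 123 and 163 CPM with curcumol, where replicate 3 was above both untreated libraries (-0.15 ± 0.18). Etfdh stood at 69.5 and 63.3 CPM without and at 58.7, 55.7 and 45.3 CPM with curcumol (-0.32 ± 0.19, adjusted p = 0.369). All 3 log2 fold changes were negative, except that Etfb was at 0.04 with total counts as the scaling. The difference between Etfa and Etfb was not tested.

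Peroxisomes shorten very-long and branched chains. Acox3, an acyl-CoA oxidase of branched chains (NCBI gene 80911), stood at 41.0 and 37.9 CPM without and at 56.1, 81.2 and 75.1 CPM with curcumol. All curcumol libraries were higher (0.84 ± 0.22, 95% interval 0.31 to 1.38, adjusted p = 0.0790). Acaa1a, a peroxisomal thiolase that is uncertain here because Acaa1b is nearly identical and could take some of its reads, stood at 174 and 177 CPM without and at 176, 137 and 168 CPM with curcumol. Acaa1b itself had at most 0.454 CPM.

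Among 37 other genes of beta-oxidation and fatty acid handling, 33 were in the table and 30 were tested. None passed, 20 were positive, the median log2 fold change was 0.51, and 10 were higher and 0 lower at an unadjusted p under 0.05. That is 33.3% higher and 0% lower, where all genes gave 18.1% and 6.51%, with 57.1% positive and a median of 0.15. These shares are descriptions and not a test, because the list was chosen with earlier results of these data known. Acad11, a dehydrogenase of very long chains, had no count without curcumol and 7.36 ± 1.65 CPM with it (adjusted p = 0.0523). That is 96.3-fold over a floor of 3 counts per untreated library. The floor covers counting error only, and the untreated libraries held a count for fewer genes, as given above. Crat, the carnitine acetyltransferase, stood at 41.1 ± 1.37 and 79.1 ± 4.13 CPM (0.95 ± 0.17, adjusted p = 0.0644).

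The 7 TCA cycle enzymes had a median log2 fold change of -0.11 (all genes 0.15, the more abundant genes -0.10). Of the 7, 3 were positive and 4 negative (42.9% positive, all genes 57.1%, the more abundant genes 40.6%). With total counts as the scaling their median was 0.08 (all genes 0.34). Mdh2, the mitochondrial malate dehydrogenase (NCBI gene 17448), stood at 435 and 376 CPM without and at 317, 244 and 269 CPM with curcumol, with the groups apart (-0.55 ± 0.17, 95% interval -0.97 to -0.13, adjusted p = 0.110). Sucla2, the subunit of the ATP-forming succinyl-CoA synthetase, stood at 107 and 111 CPM without and at 99.0, 68.8 and 80.4 CPM with curcumol (-0.40 ± 0.20, adjusted p = 0.273). Suclg1, its shared alpha subunit, stood at 91.6 and 93.5 CPM without and at 88.3, 81.4 and 88.3 CPM with curcumol. That gap is small, and the log2 fold change of -0.11 ± 0.15 turned to 0.08 with total counts. Fh1, fumarase, stood at 57.9 and 55.6 CPM without and at 82.1, 62.3 and 65.7 CPM with curcumol, all higher (0.30 ± 0.19, adjusted p = 0.400).

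The entry and decarboxylation steps had overlapping libraries. Cs, citrate synthase, stood at 133 and 113 CPM without and at 156, 139 and 113 CPM with curcumol. Idh3a, a subunit of the NAD-dependent isocitrate dehydrogenase whose step follows aconitase, stood at 83.8 and 53.7 CPM without and at 76.3, 52.6 and 51.1 CPM with curcumol. Ogdh, of the oxoglutarate dehydrogenase complex, stood at 178 and 94.1 CPM without and at 170, 190 and 138 CPM with curcumol. Per kilobase, Mdh2 led the cycle in both groups, at 278 ± 29.0 and 190 ± 25.5 CPM per kb, and the other 6 enzymes lay between 21.5 and 60.9 CPM per kb without curcumol.

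Of 33 other genes of the cycle and of pyruvate entry, all were tested and none passed. Their median log2 fold change was -0.15 (all genes 0.15, the more abundant genes -0.10). Of the 33, 12 were positive (36.4%, all genes 57.1%, the more abundant genes 40.6%). At an unadjusted p under 0.05, 4 were higher (12.1%, all genes 18.1%, the more abundant genes 9.19%). On the same measure 5 were lower (15.2%, all genes 6.51%, the more abundant genes 14.8%). Together the higher and lower genes were 27.3%, near the 24.6% of all genes. Pdp2, a phosphatase that activates pyruvate dehydrogenase, had no count without curcumol and 7.20 ± 4.72 CPM with it (adjusted p = 0.0637). That is 94.2-fold over a floor of 3 counts per untreated library, which covers counting error only. Pdhx, which anchors a subunit of the pyruvate dehydrogenase complex, stood at 33.4 ± 3.02 and 18.6 ± 0.476 CPM (adjusted p = 0.0806). Acly, which returns citrate to cytosolic acetyl-CoA, stood at 85.6 ± 4.10 and 145 ± 34.2 CPM (adjusted p = 0.106).

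How far the libraries can separate a difference varied over the members. For 21 of the 38 the 95% interval of the log2 fold change lay within a 2-fold change in either direction, and for 9 it left out 0. For 7 members, Acsl3, Acsl4, Acads, Decr1, Ppard, Ppargc1b and Pdk4, the untreated libraries were over 2-fold apart or 1 of them was at 0. The curcumol libraries were over 2-fold apart for 7 as well, Acod1, Cpt1a, Acsl3, Acsl4, Ppard, Ppargc1b and Pdk4. The count of members past the threshold varied with the untreated library left out. Without untreated replicate 1 it was 4 of 38 (2 higher, Acsl3 and Acsl4, and 2 lower, Acod1 and Pparg), where 18.7% of all genes passed. Without untreated replicate 2 it was 7 (2 higher, Acsl3 and Ppargc1b, and 5 lower, Acads, Acod1, Decr1, Etfa and Pparg), where 22.5% of all genes passed. In those fits a single untreated library is assumed to vary like the curcumol libraries.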

How the data were processed

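RNA of sorted cardiac CD45+CD64+ cells was measured in 5 libraries. The authors deposited raw counts per gene. Tools named, per the submitters' processing notes, were HTSeq, HISAT2, Bowtie2 and fastp, without versions. Build and annotation: not given in the sources used here. Strandedness is not settled, as the labels' protocols name a VAHTS kit and the design text a TruSeq one sold as stranded. Columns were tied to samples by title.

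Genes were kept by filterByExpr at a minimum count of 10, scaled by TMM and tested two-sided with the quasi-likelihood method of edgeR 4.0.16 under R 4.3.3, the group being the model's sole term (3 residual degrees of freedom). Benjamini-Hochberg adjustment ran over 14508 genes, with a threshold of 0.05. Each SE is the absolute log2 fold change over the square root of F. No permutation test was used, because 2 against 3 libraries cannot give a p below 0.1. The fit was tested on simulated data with a lower dispersion than these libraries, whose common dispersion had a square root of 0.61. That test thus does not show how well the fit recovers changes here.

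Alternatives were DESeq2 1.42.0, RLE factors, total counts, no filter, a CPM of at least 1 in 2 samples, genes averaging a log2 CPM of 5 or more, limma-voom (limma 3.58.1), a replicate block, and each library left out. Replicates differed beyond sampling noise in every pair (chi-square per gene of 92.1 or more). Transcript lengths for CPM per kilobase are those of the longest coding transcript in GENCODE M21, matched by name for 40 members, and promoter windows are RefSeq's (GRCm38.p6), so coordinates are of that build and not of the counts.

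The members and lists were chosen with earlier results of these data known. Any member could be named. Values in every library are given for Acod1, for members with an unadjusted p under 0.05 or with groups that do not overlap, for the highest and lowest log2 fold change of each role, and for further members whose libraries differ. Other lists give up to 3 genes of smallest p. One gene that this rule names is not reported here. Floors of 3 counts (0.0760 and 0.0767 CPM in the untreated libraries) cover counting error only.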

Additional observations from a re-analysis of the deposited data

How the results depend on the processing

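The median log2 fold change of all genes was 0.15 and became 0.34 with total counts. In edgeR's quasi-likelihood test 0 members passed, 9 having an unadjusted p under 0.05. Members past the threshold, higher and lower, numbered 2 and 6 with DESeq2, 0 and 3 with limma-voom, 0 and 1 without a filter, and 0 to 2 and 0 to 5 with single libraries left out. Over all genes 30 passed, against 2397 with DESeq2, 10 with total counts, 416 without a filter, 98 with a CPM of at least 1 in 2 samples, 179 among abundant genes and 1661 with limma-voom. With single libraries left out 0 to 3531 passed: 2950 and 3531 without untreated replicate 1 or 2, and 1, 0 and 19 without curcumol replicate 1, 2 or 3 (2383 at an unadjusted p under 0.05 where none passed). Members at an unadjusted p under 0.05 numbered 8 to 16 with libraries left out, 2 to 7 of them higher and 3 to 10 lower. Those higher numbered 5 with DESeq2 and with total counts, and 4 without a filter and with limma-voom. The share of all genes with such a p, in either direction, moved too. It was 28.8% with DESeq2, 25.4% with total counts, 19.8% without a filter and 27.8% with limma-voom. With single curcumol libraries left out it was 17.1% to 19.4%. Without either untreated library it was larger than the 24.6% of the main fit, so the counts of members there are not specific to them.

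With total counts the median log2 fold change was 0.10 for all members, 0.67 for acyl-CoA synthetases and lipase, -0.13 for the electron transfer flavoprotein, 0.13 for mitochondrial beta-oxidation and 0.081 for the TCA cycle, and Suclg1 turned to 0.081. Among abundant genes it was -0.0055 for all members, 0.43 for the carnitine shuttle, -0.23 for the flavoprotein, 0.11 for mitochondrial beta-oxidation and -1.09 for the PPAR and PGC1 regulators, for which it was 3.21 without a filter. With single libraries left out it ran from -0.090 to -0.0011 for all members, 0.29 to 0.73 for the synthetases and lipase, -0.32 to 0.22 for the shuttle, -0.39 to -0.25 for the flavoprotein, -0.33 to 1.03 for the regulators and -0.12 to 0.16 for the TCA cycle. The cause of these shifts was not tested.

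The labels give no source for a pairing, and the deviations of same-numbered libraries from their group means had correlations of 0.03 and -0.02. With the replicate number as a block, 0 members and 45 genes passed, 8 members (21.1%) had an unadjusted p under 0.05 where 10.3% of all genes did, and the members' median was -0.06. Depth limits the values of Ppargc1a and Ppara, which had at most 11 and 4 counts.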
